A study of Homo sapiens with 16 samples.

Results

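The BCL2 family apoptosis regulators were examined as a group of 10 genes, BCL2L11, BMF, BBC3, PMAIP1, BIK, BAD, BAX, BCL2, BCL2L1 and MCL1. The members were chosen by gene symbol, so that every probe of the array annotated with one of these symbols was taken, which gave 23 of the 24526 probes and 10 of the 18631 symbols in the table. Of the 23 probes, 19 passed the filter on dim probes (a detection p-value under 0.05 on at least 3 arrays) and every one of the 10 genes kept at least 1 of them, so that the tests below rest on 19 of 16110 probes tested. Probes of a gene were kept apart, because several of them did not follow each other.

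Expression was measured in SUM225 cells, an established line from a human breast carcinoma in which HER2 (ERBB2) is amplified and over expressed. Per the labels the cells were grown with serum, insulin and hydrocortisone, whereas the study's methods name a medium without insulin or EGF for this line, and all cultures received CP724,714, a small molecule that blocks the kinase activity of HER2, at 1 µM. RNA was taken from parallel cultures at 0 h and then every 3 h until 45 h, and 1 Illumina bead array was hybridised for each of the 16 time points. No time point had a replicate and no course of untreated cells was analysed here, so that the inhibitor and time in culture cannot be told apart. For the time courses of MCF10A and its derived lines, the study's methods describe fresh medium at the start of treatment. If this was also done here, fresh medium and the inhibitor cannot be told apart either.

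Proteins of the BCL2 family decide whether the outer membrane of the mitochondrion is opened, the step that frees cytochrome c and starts the caspases. BCL2, BCL-XL (the product of BCL2L1) and MCL1 hold the membrane closed, BAX forms the pores, and the BH3-only proteins BIM (BCL2L11), BMF, PUMA (BBC3), NOXA (PMAIP1), BIK and BAD bind the protective members or activate the pore formers. In epithelial cells that depend on HER2 or EGFR, ERK and AKT signalling is known to restrain BIM, BMF and BAD, by transcription factors of the FOXO family, by phosphorylation and by protein turnover. Arrays measure mRNA only, and the phosphorylation and turnover of these proteins were not measured here.

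BMF had the largest rise among the members and no probe of BCL2L11 had a linear trend, and the promoters of these genes are printed here because FOXO factors are known to act on BH3-only genes, BCL2L11 among them. The sequences are those of RefSeq on assembly GRCh38.p14. They run from 250 bases before to 50 bases after a transcription start, 5′ to 3′ on the strand of the gene. The second BMF window lies at a start inside the gene, which spans 40087890 to 40108879. Capitals mark the FOXO core motif, searched as GTAAACA and its reverse complement TGTTTAC, and a window without capitals holds neither.
BMF chr15:40108830-40109129 (minus strand): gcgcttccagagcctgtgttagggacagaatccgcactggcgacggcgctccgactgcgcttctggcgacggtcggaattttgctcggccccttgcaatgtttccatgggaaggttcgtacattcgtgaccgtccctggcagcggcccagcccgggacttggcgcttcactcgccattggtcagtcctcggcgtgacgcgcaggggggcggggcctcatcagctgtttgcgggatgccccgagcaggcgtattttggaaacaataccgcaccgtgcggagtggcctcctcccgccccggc
BMF chr15:40106917-40107216 (minus strand): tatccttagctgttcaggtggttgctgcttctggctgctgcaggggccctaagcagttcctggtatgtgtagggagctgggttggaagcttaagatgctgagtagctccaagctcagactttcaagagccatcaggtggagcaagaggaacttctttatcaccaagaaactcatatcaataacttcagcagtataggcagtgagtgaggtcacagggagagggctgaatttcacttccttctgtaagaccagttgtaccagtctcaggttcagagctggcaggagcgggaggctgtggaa
BCL2L11 chr2:111120664-111120963 (+ strand): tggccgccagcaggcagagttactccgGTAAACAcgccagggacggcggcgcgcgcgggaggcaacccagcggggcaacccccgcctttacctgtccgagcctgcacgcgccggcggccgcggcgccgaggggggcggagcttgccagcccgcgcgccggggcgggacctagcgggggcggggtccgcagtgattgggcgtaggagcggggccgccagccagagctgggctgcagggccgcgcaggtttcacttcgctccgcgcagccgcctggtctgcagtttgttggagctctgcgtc
Of the 10 member genes, 8 had entries in the promoter table, with 11 windows of 300 bases. The core stood in 1 of the 11, that of BCL2L11, where it began 223 bases before the start, and 3.42% of all 35116 windows in the table held it. The match is a description of letters and shows no binding.

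The median signal intensity of the arrays lay between 242 and 384, and between 57.5% and 61.5% of the probes were detected. Probes for ERBB2, KRT8, KRT18, KRT19, CDH1 and TACSTD1 (EPCAM), markers of HER2-amplified luminal epithelium, were detected on all 16 arrays, although 1 of the 3 ERBB2 probes was detected on 12. The 4 probes for the leukocyte gene PTPRC and the probe for VIM were detected on none, CD3E on 1 and COL1A1 on 5, while 1 of the 2 probes for CD68 and the probe for PECAM1 were detected on all 16. The arrays stood apart in sets of 4 consecutive time points (0 to 9, 12 to 21, 24 to 33 and 36 to 45 h). No label names a batch, and a set effect and a change with time cannot be told apart. When a straight line was fitted within the sets only, 0 of the 19 member probes had a linear trend at an adjusted p under 0.05 in limma. The share of all probes tested was not counted for this fit, so the 0 is no result about the members. Standard errors were also larger in it, as for MCL1 ILMN_1803988 with 0.64 against 0.16. When a step between 21 and 24 h was a term in the fit, MCL1 ILMN_1803988 (adjusted p = 0.0122) and BAD ILMN_1720360 (-2.71 ± 0.69 log2 units over 45 h, adjusted p = 0.00853) kept the linear trends given below. The linear terms of BMF (adjusted p = 0.412 and 0.415 in limma), BIK (0.119) and BCL2L1 (0.341 and 0.450) did not pass the threshold. Nor did those of BAD ILMN_1738652 (0.102), BAX ILMN_1683300 (0.663) and BCL2 ILMN_2246956 (0.549). All these terms kept their sign and had larger standard errors with the step. BAD ILMN_1738652 stood at -0.67 ± 0.28 log2 units, against -0.57 ± 0.11 without the step. The other estimates were smaller in size, as for BIK with 0.53 ± 0.23 against 0.73 ± 0.09. BMF ILMN_1695354 stood at 1.18 ± 0.93, against 2.51 ± 0.38. Whether the step accounts for these trends was not tested. By the F-test of the cubic terms in limma, 11 of the 19 member probes were still time-dependent with the step, against 12 without it. The share of all probes tested was not counted for the step fit either.

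The first question was how many of the members changed over the 45 h of treatment. A cubic in hours was fitted to each probe, and by its F-test in limma 12 of the 19 probes were time-dependent at an adjusted p under 0.05, against 51.3% of all probes tested. A linear trend was found for 10 probes in 7 genes, against 47.7%. Of these, 6 rose, against 26.0% of all probes tested, and they were both tested probes of BMF, the probe for BIK, both probes of BCL2L1 and 1 of the 2 of MCL1. The 4 that fell, against 21.7%, were 2 of the 3 probes of BAD, 1 of the 3 of BAX and the tested probe of BCL2. The shares were near those of the array as a whole, and the median linear change was -0.01 log2 units over the 19 probes and 0.05 over all probes.

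**Figure D1:**
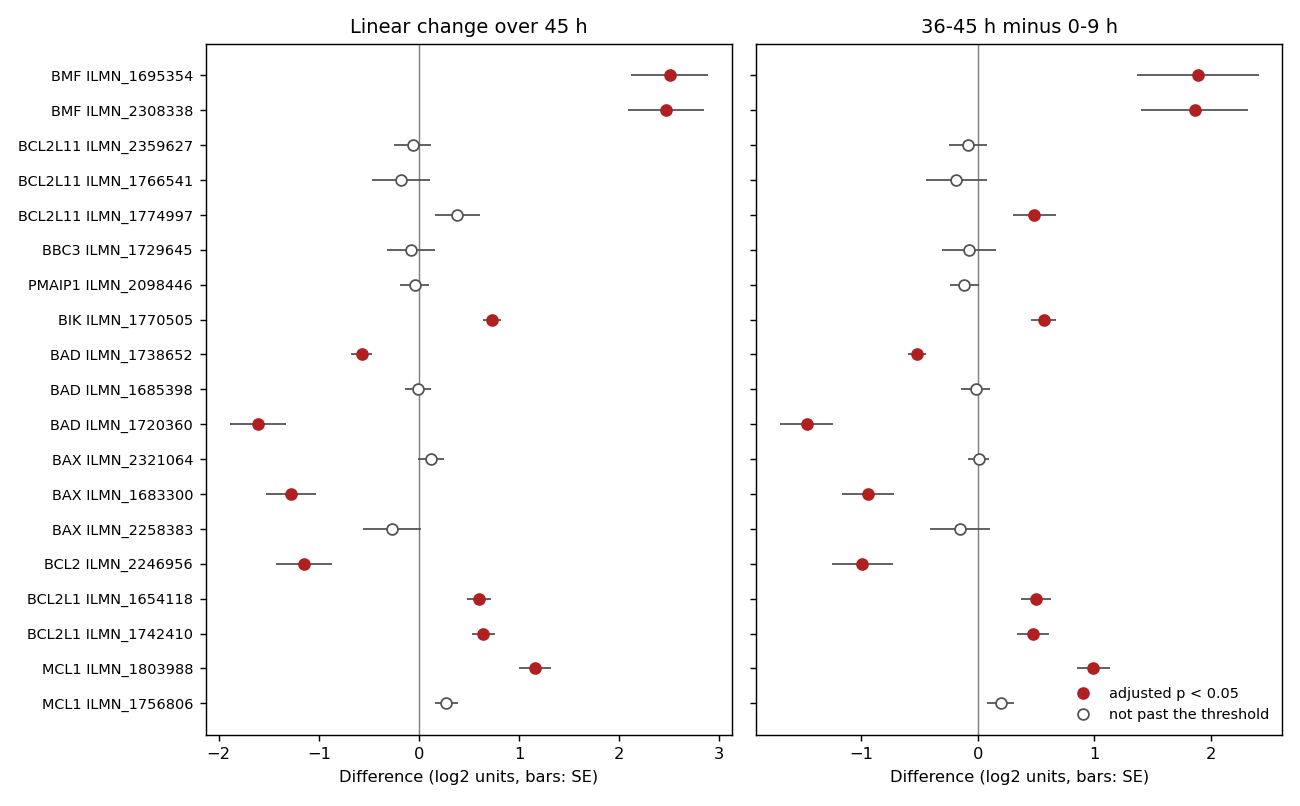
Linear change over 45 h (left) and difference of the arrays at 36 to 45 h from those at 0 to 9 h (right), both in log2 units (x axes), of the 19 tested probes of the 10 genes (y axis), with bars for the standard error and filled points for an adjusted p under 0.05. In the left panel the 2 BMF probes stand farthest to the right at 2.51 and 2.47, and 1 BAD probe stands farthest to the left at -1.61.

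Between the last 4 arrays (36 to 45 h) and the first 4 (0 to 9 h), 7 member probes were higher, against 24.9% of all probes tested, and 4 were lower, against 20.0%, by limma at an adjusted p under 0.05. The values of the first and last 4 arrays did not overlap for 4 probes that ended higher (19.7% of all probes tested did so) and for 4 that ended lower (16.3%). The probes that ended higher without overlap were both tested probes of BMF, that of BIK, and MCL1 ILMN_1803988. Those that ended lower were BAD ILMN_1738652 and ILMN_1720360, BAX ILMN_1683300 and BCL2 ILMN_2246956. The course was curved, by a limma test of the higher terms of the cubic, for 5 member probes, against 19.3%, which were 1 of BMF, the probe for BIK, both of BCL2L1 and 1 of BAX.

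BMF encodes a BH3-only protein that binds dynein light chains of the cytoskeleton and, when released, the protective members of the family. Its mRNA was lowest at 0 h and higher in every culture harvested after addition of the inhibitor. For probe ILMN_1695354 the normalized log2 intensity was 6.35, 9.16, 9.92 and 10.42 in the first 4 arrays (0, 3, 6 and 9 h), 9.68, 10.11, 9.76 and 10.05 in the next 4 (12, 15, 18 and 21 h), 10.46, 10.22, 10.52 and 10.49 from 24 to 33 h, and 10.76, 10.72, 11.05 and 10.87 from 36 to 45 h. The 0 h array was the lowest, and the next lowest, at 3 h, lay 2.81 log2 units above it. The deposited signal intensity, before any correction, went from 240 at 0 h through 578, 804 and 1484 at the next 3 harvests and reached 2287 at 42 h. The probe was detected on every array, at 0 h with a detection p-value of 0.0173, so that its level at 0 h was close to background.

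The other tested probe of BMF, ILMN_2308338, followed the same course. It stood at 6.45, 9.12, 9.38 and 10.05 in the first 4 arrays, lay between 9.30 and 10.29 from 12 to 33 h, and lay between 10.55 and 10.67 from 36 to 45 h. The Pearson r of the 2 probes was 0.99 over the 16 arrays, which share their RNA. Relative to 0 h, the first probe was 11.8-, 16.8- and 22.9-fold higher at 6, 9 and 45 h, and the second was 6.39-fold higher at 3 h and 7.67-, 12.1- and 17.2-fold higher at 6, 9 and 45 h. All these folds rest on the single 0 h array.

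The linear change of BMF over 45 h was 2.51 ± 0.38 log2 units (SE, adjusted p = 2.19e-05 in limma) for the first probe and 2.47 ± 0.38 (adjusted p = 2.4e-05) for the second. Without the 0 h array it was 1.46 ± 0.22 (adjusted p = 2.01e-05) and 1.58 ± 0.21 (adjusted p = 5.31e-06), so that BMF also rose over the arrays from 3 to 45 h. The last 4 arrays exceeded the first 4 by 1.89 ± 0.52 log2 units (adjusted p = 0.00618) and by 1.86 ± 0.46 (adjusted p = 0.00257), and by 1.01 ± 0.20 and 1.09 ± 0.16 without the 0 h array. Most of the change fell within the first set of 4 arrays, in which the first probe gained 4.07 log2 units between 0 and 9 h, while it gained 0.37, 0.03 and 0.11 between the first and last array of the later sets. A slope common to all sets was 5.54 ± 2.15 log2 units per 45 h (adjusted p = 0.226 in limma), and that of the second probe was 4.54 ± 1.93 (adjusted p = 0.273). This fit takes the slope to be the same in every set, which the gains above were not. Its p-values therefore do not weigh the rise between 0 and 9 h.

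The first hours were set beside the rest of the array, without a test because each time point had 1 array. At 3, 6 and 9 h alike, 2 member probes were at least 1.7-fold above 0 h, the 2 of BMF, and 0.602% of all probes tested met the same condition. No member probe was 1.7-fold below 0 h at all 3 times, which 0.757% of the probes tested were. At single times, the same 2 probes were past 1.7-fold at 3 h (1.82% of all probes tested) and at 6 h (4.09%), and BBC3 joined them at 9 h (5.71%). Below 0 h by 1.7-fold were 0 member probes at 3 h (2.43% of all) and at 6 h (5.65%), and 1 at 9 h (6.45%), BCL2L11 ILMN_1766541. The 0 h value was the lowest of the 16 for the 2 BMF probes, BIK and BCL2L11 ILMN_1774997 (14.9% of all probes tested) and the highest for BAD ILMN_1685398 and BCL2 ILMN_2246956 (12.3%). The mean of 3, 6 and 9 h exceeded 0 h by 3.48 log2 units (11.2-fold) and by 3.07 (8.41-fold) for the 2 BMF probes, which ranked 1 and 2 of 16110 in this rise. They kept these ranks with an offset of 50, with median scaling and with cyclic loess, and ranked 2 and 5 without background correction, where the rises were 4.33-fold and 3.52-fold. The size of the rise thus depended on the background correction.

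**Figure D2:**
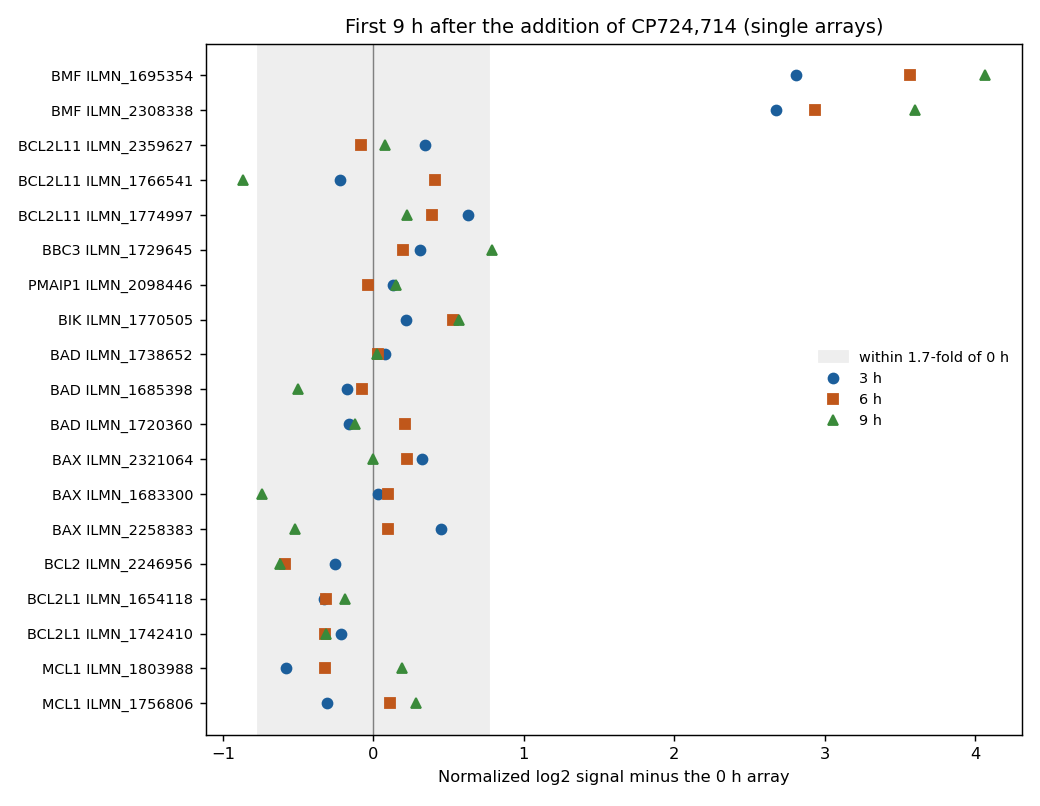
Difference from the 0 h array in log2 units (x axis) at 3, 6 and 9 h of treatment (circles, squares and triangles) for the 19 tested member probes (y axis), 1 array per time point and no error bars, with grey shading for values within 1.7-fold of 0 h. The 2 BMF probes lie between 2.68 and 4.07, and the other members lie below 1.

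The other 2 probes annotated to BMF, ILMN_1810239 and ILMN_1787794, were detected on 0 of the 16 arrays, with signal intensities between 152 and 211, and were not tested. Which transcripts each probe matches was not given in the table. By a rule of likeness, the genes whose probes had the highest Pearson r with BMF probe ILMN_1695354 over the 16 arrays were MGC17330 (0.97), CRBN (0.96) and CDKN2C (0.96).

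BCL2L11 encodes BIM, which binds all the protective members and activates BAX. None of its 3 probes had a linear trend, and the probes did not follow each other (pairwise Pearson r of -0.11, -0.43 and -0.10 over 16 arrays). The brightest, ILMN_2359627, was detected on all 16 arrays, stood at 7.57, 7.90, 7.48 and 7.64 in the first 4 arrays, and ranged from 6.91 at 24 h to 7.90 at 3 h. Its linear change was -0.06 ± 0.19 log2 units (adjusted p = 0.812 in limma). Probe ILMN_1766541, detected on 13 arrays, ranged from 5.75 at 9 h to 7.20 at 18 h and changed by -0.18 ± 0.29 (adjusted p = 0.651).

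The dimmest BCL2L11 probe, ILMN_1774997, was detected on 11 arrays. It was lowest at 0 h, at 5.56, and stood between 5.79 and 6.70 afterwards. Its linear change of 0.38 ± 0.23 did not pass the threshold (adjusted p = 0.177 in limma), whereas the last 4 arrays exceeded the first 4 by 0.49 ± 0.19 log2 units (adjusted p = 0.0402), with values that overlapped. This call was lost without background correction (adjusted p = 0.0531), with median scaling (adjusted p = 0.0525), with array weights (adjusted p = 0.0844), without a filter (adjusted p = 0.0507), and when any of the arrays at 0, 6, 9, 36, 39 or 42 h was left out.

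BBC3 encodes PUMA, a known target of FOXO3. Its only probe was detected on 4 of the 16 arrays and ranged from 5.40 at 45 h to 6.52 at 27 h, with a linear change of -0.08 ± 0.24 log2 units (adjusted p = 0.816 in limma). Its signal intensities, between 193 and 337, were close to background. Whether a change of PUMA mRNA was missed at such signals was not tested. PMAIP1 encodes NOXA, which binds MCL1 and promotes its loss. Its probe was detected on all 16 arrays, ranged from 8.70 at 21 h to 9.49 at 45 h and had a linear change of -0.04 ± 0.15 (adjusted p = 0.840 in limma), but -1.01 ± 0.30 (adjusted p = 0.0217) with a step between 21 and 24 h in the fit. It was lower at 12 to 21 h than at 0 to 9 h by 0.38 ± 0.13 log2 units (adjusted p = 0.0284), which 13.9% of all probes tested also were, and stood at 9.18 at 42 h and 9.49 at 45 h.

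BIK encodes a BH3-only protein of the endoplasmic reticulum, and its probe rose. Its log2 values were 10.38, 10.59, 10.90 and 10.94 in the first 4 arrays (0, 3, 6 and 9 h), 10.91, 11.12, 11.07 and 11.16 in the next 4 (12, 15, 18 and 21 h), 11.21, 11.31, 11.38 and 11.20 from 24 to 33 h, and 11.34, 11.29, 11.11 and 11.34 from 36 to 45 h. The lowest 4 values were all among the first 5 arrays, and from 24 h on the values stayed within 11.11 and 11.38. The linear change was 0.73 ± 0.09 log2 units or 1.66-fold (adjusted p = 1.99e-06 in limma), with a departure from a straight line (adjusted p = 0.00909). The window from 12 to 21 h exceeded that from 0 to 9 h by 0.37 ± 0.11 (adjusted p = 0.0175), which 15.9% of all probes tested also did. Between the first and the last array of a set BIK gained 0.57 log2 units at 0 to 9 h and 0.25 at 12 to 21 h, and then -0.01 and 0.01.

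BAD encodes a BH3-only protein that binds BCL2 and BCL-XL and is held inactive by phosphorylation downstream of growth factor receptors. Of its 3 probes 2 fell and the other had no linear trend. The brightest, ILMN_1738652, stood at 12.07, 12.15, 12.11 and 12.10 at 0, 3, 6 and 9 h and then between 11.42 and 11.72 at all later times. The drop lay between 9 and 12 h, which is also the border of 2 sets of arrays, and the probe was level within the first set. The window from 12 to 21 h was lower than that from 0 to 9 h, with a difference of -0.49 ± 0.08 log2 units (adjusted p = 0.000159 in limma), and the linear change over 45 h was -0.57 ± 0.11 (adjusted p = 0.000227).

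BAD probe ILMN_1720360 was dimmer, was detected on 14 arrays and had the largest fall among the members. It stood between 7.30 and 7.68 at 0 to 9 h, between 6.22 and 6.31 at 15 to 21 h, between 6.42 and 6.64 at 24 to 33 h, and at 5.67, 6.46, 6.42 and 5.37 at 36, 39, 42 and 45 h, with no detection at 36 and 45 h. The first 4 arrays lay above all the others. The linear change was -1.61 ± 0.28 log2 units (adjusted p = 0.000103 in limma), and without background correction it was -0.64 ± 0.11 (adjusted p = 7.01e-05). Probe ILMN_1685398, detected on all 16 arrays, was highest at 0 h, at 8.54, and lay between 8.02 and 8.47 afterwards, with a linear change of -0.01 ± 0.13 (adjusted p = 0.967). The Pearson r of the 2 probes that fell was 0.83 over the 16 arrays, and their r with the third probe was 0.31 and 0.14. The differences between the probes were not tested. The genes most like BAD probe ILMN_1720360 over the 16 arrays were FLJ20643 (r = 0.96), WDR34 (0.94) and CAMK2B (0.93).

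BAX encodes the pore-forming effector, and its 3 probes differed. The brightest, ILMN_2321064, lay between 11.80 and 12.13 at 0 to 9 h, between 11.43 and 11.57 at 12 to 21 h, between 11.55 and 11.89 at 24 to 33 h and between 11.88 and 12.08 at 36 to 45 h. The second window was below all arrays of the first and the last. This probe was time-dependent (adjusted p = 0.0266 in limma) with a departure from a straight line (adjusted p = 0.037, but 0.0879 without the 45 h array) and without a linear trend (0.12 ± 0.13, adjusted p = 0.478), and its second window was lower than the first, with a difference of -0.45 ± 0.09 (adjusted p = 0.00117). These steps fell on the borders of sets.

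BAX probe ILMN_1683300 was dim but detected on all 16 arrays. It lay between 7.03 and 7.87 at 0 to 9 h, reached 7.91 at 18 h and lay between 6.30 and 6.83 at 36 to 45 h, a linear change of -1.28 ± 0.25 log2 units (adjusted p = 0.000296 in limma), which was -0.59 ± 0.12 (adjusted p = 0.000341) without background correction. Probe ILMN_2258383, detected on 11 arrays, ranged from 5.72 at 21 h to 6.96 at 24 h, with a linear change of -0.27 ± 0.29 (adjusted p = 0.476). The pairwise r of the BAX probes lay between -0.05 and 0.30. A direction for BAX as a gene cannot be given from probes that differ in this way.

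**Figure D3:**
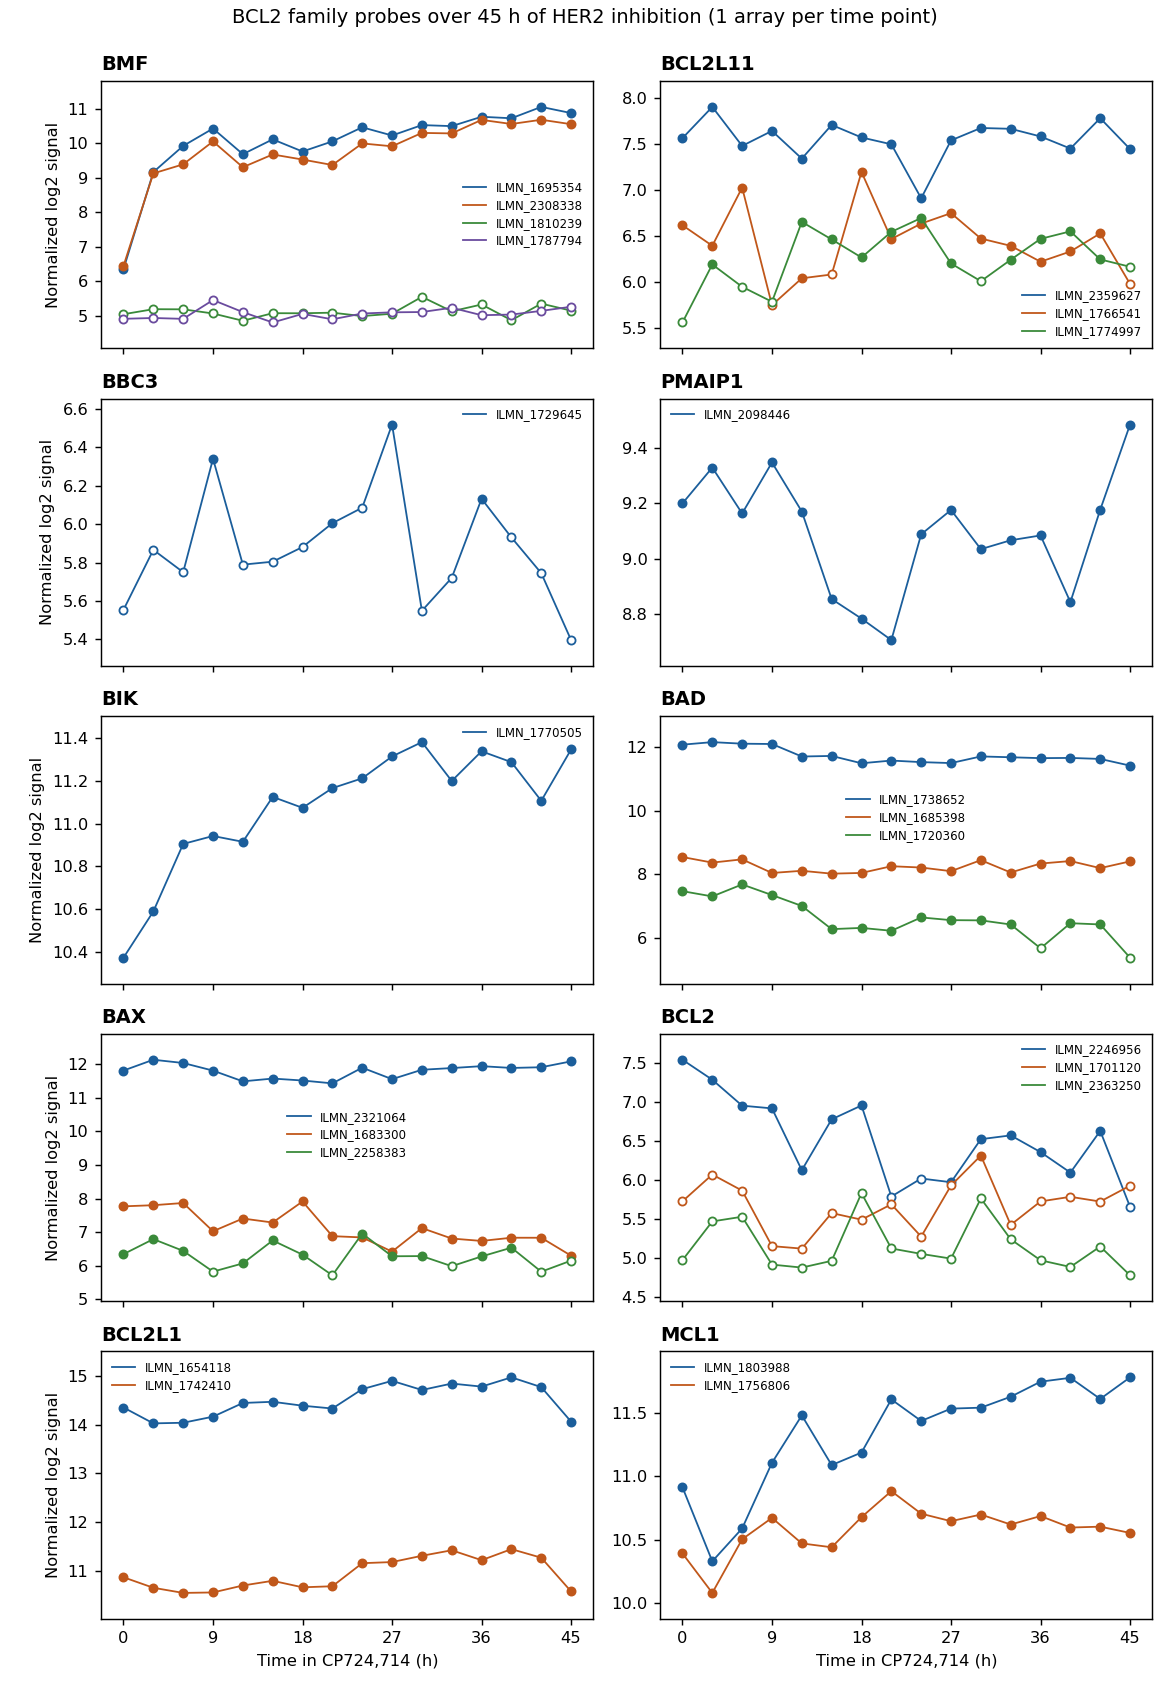
Normalized log2 intensity (y axis) against hours of CP724,714 (x axis) for the member probes, 1 point per array and open circles where the detection p-value was 0.05 or more. BMF steps up between 0 and 3 h, and BIK and MCL1 probe ILMN_1803988 climb. The BCL2L1 probes stand higher from 24 to 42 h than before and drop at 45 h, and BAD probe ILMN_1738652 steps down between 9 and 12 h.

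Among the protective members, BCL2 was weakly measured. Of its 3 probes, ILMN_1701120 was detected on 1 array and ILMN_2363250 on 0, and neither was tested. The third, ILMN_2246956, was detected on 13 arrays and was highest at 0 h, at 7.54, followed by 7.28, 6.95 and 6.91 at 3, 6 and 9 h, and it lay between 5.65 at 45 h and 6.95 at 18 h afterwards. Its linear change was -1.15 ± 0.28 log2 units (adjusted p = 0.00213 in limma). The last 4 arrays were lower than the first 4, with a difference of -0.99 ± 0.26 (adjusted p = 0.0043) and no overlap. The probe was dim throughout, with signal intensities between 208 and 336. Without background correction its linear change was -0.45 ± 0.10 and its window difference -0.38 ± 0.10, both still past the threshold.

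BCL2L1, the gene of BCL-XL, had the brightest probe of the members, ILMN_1654118, which reached up to 59.5% of the signal of the brightest probe on the same array. Both of its probes rose and followed each other, with a Pearson r of 0.94 over the 16 arrays. The log2 values of probe ILMN_1742410 were 10.87, 10.65, 10.54 and 10.55 in the first 4 arrays (0, 3, 6 and 9 h), 10.70, 10.79, 10.66 and 10.68 in the next 4 (12, 15, 18 and 21 h), 11.16, 11.18, 11.31 and 11.42 from 24 to 33 h, and 11.22, 11.44, 11.27 and 10.57 from 36 to 45 h. All arrays from 24 to 42 h lay above all earlier ones, and the 45 h array lay back among the first. Probe ILMN_1654118 ran from 14.36 at 0 h and 14.03 at 3 h to 14.98 at 39 h, and stood at 14.06 at 45 h.

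The linear change of BCL2L1 was 0.60 ± 0.12 log2 units (adjusted p = 0.000345 in limma) for ILMN_1654118 and 0.64 ± 0.12 (adjusted p = 0.000149) for ILMN_1742410, both with a departure from a straight line (adjusted p = 0.00256 and 0.00132). Without the 45 h array the changes were 0.92 ± 0.11 and 0.94 ± 0.11, and the departure was lost for ILMN_1654118 (adjusted p = 0.210) and kept for ILMN_1742410 (adjusted p = 0.0234). From 42 to 45 h the probes dropped by 0.71 and 0.69 log2 units, 1.64-fold and 1.62-fold, a fall as deep as that of 5.47% and 5.74% of all probes tested. The step from 12 to 21 h to 24 to 33 h was 0.56 ± 0.14 (adjusted p = 0.0159) for ILMN_1742410, which 4.21% of all probes tested also showed, and 0.39 (adjusted p = 0.0826) for the other. This step lies on the border of 2 sets. A slope common to all sets was negative, at -1.19 ± 0.56 (adjusted p = 0.336 in limma) and -0.90 ± 0.62 (adjusted p = 0.541) per 45 h. The sets differed in this. Between the first and last array of a set, the probes changed by -0.19 and -0.31 at 0 to 9 h and by -0.11 and -0.02 at 12 to 21 h. The changes were 0.12 and 0.27 at 24 to 33 h, and -0.72 and -0.64 at 36 to 45 h, which ends with the low 45 h array.

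MCL1 encodes a short-lived protective member. The log2 values of probe ILMN_1803988 were 10.91, 10.33, 10.59 and 11.11 in the first 4 arrays (0, 3, 6 and 9 h), 11.48, 11.09, 11.19 and 11.61 in the next 4 (12, 15, 18 and 21 h), 11.44, 11.53, 11.54 and 11.63 from 24 to 33 h, and 11.75, 11.78, 11.61 and 11.78 from 36 to 45 h. The 3 h array was the lowest and lay 0.58 log2 units below 0 h, a difference with no test, and all arrays from 36 h on lay above all of the first 4. The linear change was 1.16 ± 0.16 log2 units or 2.24-fold (adjusted p = 6.19e-06 in limma), and the last 4 arrays exceeded the first 4 by 0.99 ± 0.14 (adjusted p = 8.75e-06). Of the steps between windows, that from 0 to 9 h to 12 to 21 h was 0.61 ± 0.14 (adjusted p = 0.00249).

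The other MCL1 probe, ILMN_1756806, was also lowest at 3 h, at 10.08, and highest at 21 h, at 10.88. It was time-dependent (adjusted p = 0.0322 in limma), but its linear change of 0.27 ± 0.11 log2 units missed the threshold (adjusted p = 0.0549). It passed with detection required on all 16 arrays (adjusted p = 0.0474), with array weights (adjusted p = 0.00298) and when the 9, 21 or 45 h array was left out. The Pearson r of the 2 probes was 0.70 over the 16 arrays, and the difference between them was not tested.

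The rest of the pathway was read from gene lists with 1 probe per gene, the one with the highest mean. On this scale 27.0% of all genes tested rose and 22.0% fell, with a median linear change of 0.06 log2 units, and of the 10 members 4 rose and 2 fell, with a median of 0.04. Of 3 other protective family members 1 rose, BCL2L2 (BCL-W), by 0.82 ± 0.10 log2 units (adjusted p = 1.83e-06 in limma), and none fell. Of 8 other effectors and BH3 proteins 3 rose and none fell. These were HRK, a BH3-only gene, with 1.73 ± 0.11 (adjusted p = 6.1e-10), BOK, a relative of BAX, with 0.51 ± 0.09, and BCL2L13 with 0.44 ± 0.08, while the effector BAK1 stood at -0.04 ± 0.13 (adjusted p = 0.837) and BID at 0.07 ± 0.12 (adjusted p = 0.660).

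Downstream of the mitochondrion, 3 of 9 genes of release and the apoptosome rose and 2 fell. CASP9, the initiator caspase, rose by 1.00 ± 0.19 log2 units (adjusted p = 0.000182 in limma), its partners APAF1 and CYCS rose by 0.75 ± 0.17 and 0.43 ± 0.12, and VDAC3 (-0.53 ± 0.09) and AIFM1 (-0.22 ± 0.08) fell. Of the 5 other caspases reported here 2 rose, CASP4 (0.79 ± 0.11) and CASP6 (0.47 ± 0.12). Of 5 inhibitors of apoptosis, XIAP (listed as BIRC4, 0.59 ± 0.15) and BIRC2 (0.50 ± 0.10) rose. BIRC5 (survivin), which is made mainly by dividing cells, fell by 3.65 ± 0.29 log2 units (adjusted p = 5.28e-09). The median linear changes of the 3 lists were 0.15, 0.20 and 0.26.

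Of 12 death receptors and adaptors 4 rose and 2 fell, with a median of 0.19. CFLAR, which blocks caspase-8, rose by 1.17 ± 0.12 log2 units (adjusted p = 2.24e-07 in limma) and the ligand TNFSF10 (TRAIL) by 0.90 ± 0.11, as did the adaptors TRADD (0.60 ± 0.10) and RIPK1 (0.52 ± 0.10). The receptors FAS (-1.95 ± 0.23, detected on 8 arrays) and TNFRSF10A (-0.75 ± 0.19) fell.

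Transcription factors known to act on BH3-only genes were also listed. Of the 8 reported here 5 rose, with a median linear change of 0.54 log2 units. The 3 FOXO genes rose, FOXO4 (listed as MLLT7) by 1.77 ± 0.17 (adjusted p = 6.01e-08 in limma), FOXO3 (FOXO3A) by 0.64 ± 0.09 and FOXO1 (FOXO1A) by 0.45 ± 0.11, as did the stress factors DDIT3 (0.94 ± 0.16) and ATF4 (0.71 ± 0.13). Of 11 regulators of MCL1 and BIM protein turnover, FBXW7, which marks MCL1 for degradation, rose by 0.47 ± 0.14 (adjusted p = 0.00786), and 2 fell. These were GSK3B (-0.43 ± 0.08) and DYNLL2 (-0.83 ± 0.10, adjusted p = 7.99e-07), the dynein light chain to which BMF binds.

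Genes of ERK feedback and output, which report on signalling below HER2, were read in the same way. Of 12 tested 9 fell and 1 rose, with a median linear change of -1.28 log2 units. The largest fall was that of ETV5 with -3.56 ± 0.42 (adjusted p = 8.71e-07 in limma), followed by ETV4 with -3.33 ± 0.24, and SPRY1 was the one that rose (1.41 ± 0.31, adjusted p = 0.000992).

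**Figure D4:**
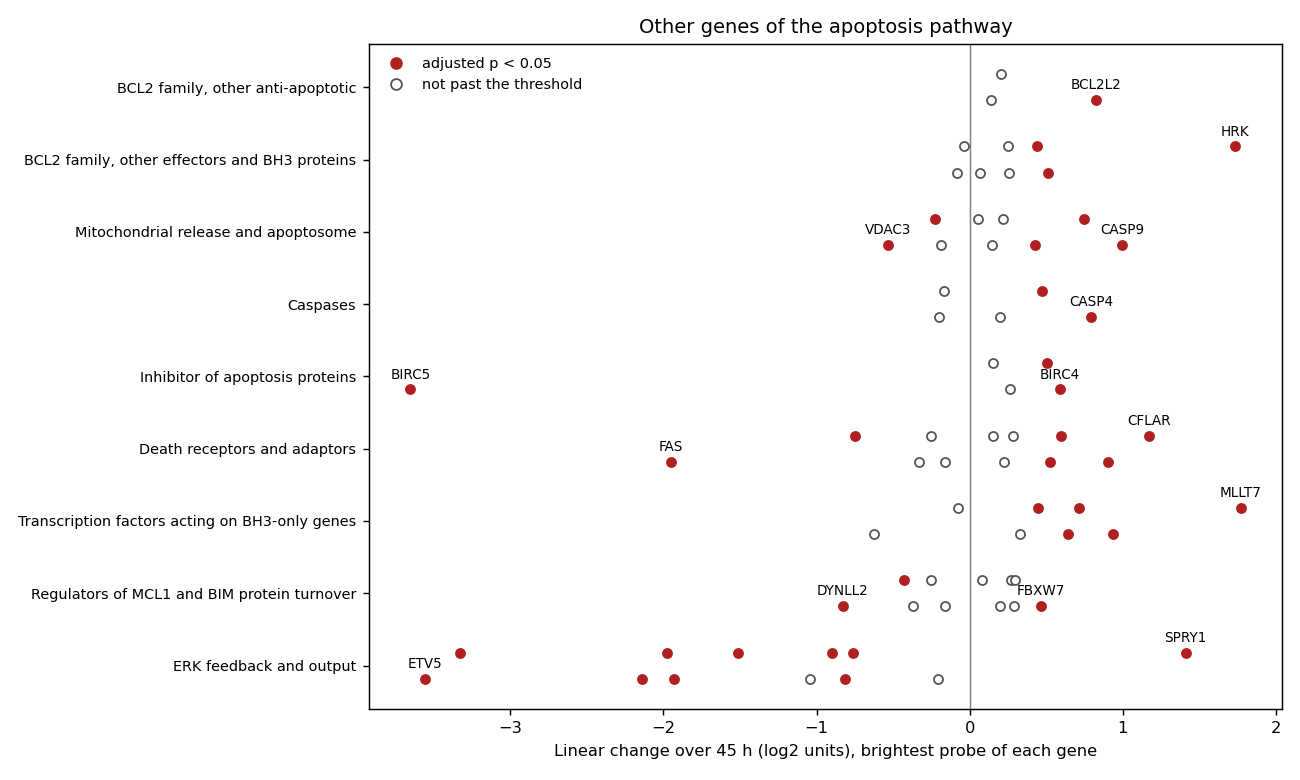
Linear change over 45 h in log2 units (x axis) of each tested gene, 1 probe per gene, in the 9 pathway lists (y axis), with filled points for an adjusted p under 0.05. Points of most lists lie on both sides of 0, and those of ERK feedback and output lie mostly below it, with a median of -1.28.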

How the data were processed

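RNA of 16 parallel cultures, grouped by the time in their labels, was hybridised to 16 bead arrays. The deposited values are a signal intensity on a linear scale, left by the authors without background correction or normalization, and a detection p-value for each probe on each array. The study's methods name the Illumina Ref8v2 array and describe quantile normalization, while the labels of these samples state no array version. The scanning software was not given in the sources used here.

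Background was removed by normexp (neqc in limma 3.58.1, R 4.3.3), with the spread of negative controls taken from the detection p-values and an offset of 16, and the arrays were then quantile normalized and expressed as log2. Probes with a detection p-value under 0.05 on at least 3 arrays were tested (16110). A cubic in hours, and separately 4 windows of 4 arrays, were fitted (lmFit, then eBayes with a trend on intensity). Tests were two-sided, with Benjamini-Hochberg adjustment over all tested probes at 0.05. With 1 array per time point, the error is the deviation around the fitted course (median residual SD 0.19 log2 units), arrays of a window are not replicates, and precision is limited by there being 16 arrays. The fits were tested on simulated data.

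All member genes were named, with the changed genes of each list, namely the largest rise and fall or, for counts of 5 or fewer, all of them; BAK1, BID and ETV4 were added after their values were seen. The 3 genes most like the member probes with the largest rise and fall were taken by Pearson r. Some genes of the lists are not reported here and were left out of the lists and their counts. Members and lists were chosen with earlier results of these data known. The alternatives were other background corrections, scalings, filters, time courses, array weights, the set of 4 arrays as a factor, a step at 21 to 24 h, 1 probe per gene, and each array left out. Promoters were read from a RefSeq table (GRCh38.p14). Plots were made in Python 3.11.15 (matplotlib 3.10.9).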

Additional observations from a re-analysis of the deposited data

How the results depend on the processing

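Of 200 recomputed counts of members 184 stayed within 1.5 times their value. The 927 recomputed values per probe included ranks of BMF, which have no threshold. Of the 927, 859 kept direction and side of the threshold or, for ranks, stayed the same. A further 26 lost and 7 gained the call, 33 changed sign, and 2 were ranks of BMF that moved. No paired analysis was possible because there was 1 array per time point. Leaving out single arrays gave 3 to 6 probes departing from a straight line, with 3 without the 45 h array, which left BMF ILMN_1695354, BIK and BCL2L1 ILMN_1742410. Detection on all 16 arrays left 2 linear falls and 2 lower windows. BAD ILMN_1720360 (detected on 14 arrays) and BCL2 ILMN_2246956 (on 13) were no longer tested under that filter. The set as a factor left 0 linear trends, 0 rising and 0 falling. That fit had a single term for time, so no F-test of a cubic was run. Its count of time-dependent probes among the 200 repeats the linear count. A step at 21 to 24 h gave 3 linear trends, 1 rise (MCL1 ILMN_1803988) and 2 falls (BAD ILMN_1720360 and PMAIP1, which had no trend without the step). With that step 11 member probes were still time-dependent by the F-test of the cubic terms. With 1 probe per gene there were 7 time-dependent, 6 linear and 2 falling probes. Of all 13108 genes tested on this scale, 6924 were time-dependent, 27.0% rose and 22.0% fell. There were also 4 higher and 2 lower windows, and 1 probe 1.7-fold higher in the first hours. For these, and for the other alternatives in this paragraph, the share of all probes tested was not counted. Those counts are no result about the members. The ranks of BMF without background correction (2 and 5) came from alternatives added after the data were seen. The causes of the other shifts were not tested.

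Signs turned for values that had no call in the first place, except BCL2L1. With the set as a factor the linear change was -1.19 for BCL2L1 ILMN_1654118, -0.90 for ILMN_1742410, -1.07 for BCL2L11 ILMN_1774997, 0.92 for ILMN_2359627 and 0.054 for PMAIP1. With a step it was -0.54 for BAX ILMN_2321064 and 0.61 for BCL2L11 ILMN_2359627. With array weights it was -0.040 for BAX ILMN_2321064, whose window difference was -0.073, and that of BBC3 was 0.041; with cyclic loess the window difference of BAX ILMN_2321064 was -0.033. Leaving out single arrays moved the linear change from -0.076 to 0.115 for BAD ILMN_1685398, from -0.154 to 0.054 for BCL2L11 ILMN_2359627, from -0.218 to 0.035 for PMAIP1 and from -0.236 to 0.112 for BBC3. It moved the window difference from -0.121 to 0.045 for BAD ILMN_1685398, from -0.037 to 0.071 for BAX ILMN_2321064, from -0.155 to 0.0027 for BCL2L11 ILMN_2359627, from -0.414 to 0.013 for BCL2L11 ILMN_1766541 and from -0.187 to 0.078 for BBC3.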
